A study of Homo sapiens with 9 samples.

Results

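Dendra2-RPB1-70R cells were compared with Dendra2-RPB1-25R cells, which differ in the length of the C-terminal domain (CTD) of RPB1, the largest subunit of RNA polymerase II. Every cell with at least 500 genes and at most 20% of its UMIs from mitochondrial genes was taken, which gave 2718 cells of 70R and 3121 cells of 25R, or 5839 of the 20451 cells kept in the 6 libraries of the series. Both lines were U2OS, a human osteosarcoma line, and carried RPB1 fused at its N terminus to Dendra2, a photoconvertible fluorescent protein. The CTD had 70 repeats in 70R and 25 repeats in 25R, against 52 in the human wild type. Cells of both lines, as of all other libraries in the series, had been kept for 6 days with 1 µg/ml of α-amanitin. This toxin blocks RNA polymerase II, but how far it acted on the tagged RPB1 was not tested. The libraries are therefore not read as coming from cells whose polymerase was blocked. Beside this pair, a Dendra2 line with 52 repeats and HaloTag-RPB1 lines with 70, 52 and 25 repeats, all treated alike, are given as values only. Each HaloTag genotype is listed as 2 samples, merged in 1 matrix that is counted here as 1 library. Each Dendra2 genotype was a single line and a single library, so CTD length cannot be told apart from any other difference between the lines. For the same reason no test was made: sizes are given as CPM (a gene's UMIs summed over cells and scaled to a common library total) and log2 ratios, and intervals are 95% exact ones that cover counting error only.

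The CTD is a tail of repeated heptapeptides that is phosphorylated at each stage of the transcription cycle. In its different phosphorylated states it holds capping, splicing, elongation and 3′ end processing factors beside the emerging RNA. It also takes part in the clustering of polymerases at promoters, and its length is tied to the firing of transcriptional bursts.

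The 70R library held 53635648 UMIs and the 25R library 52730959. The median cell had 18739 UMIs and 4588 genes in 70R and 15770 UMIs and 4039 genes in 25R, and the median mitochondrial share was 5.41% in 70R and 5.99% in 25R. The limits on genes and mitochondrial share removed 59 barcodes in 70R and 64 in 25R. The kept 70R cell with the fewest genes had 502, beside 498 in the removed cell nearest to the limit, and the highest mitochondrial share kept was 18.4%, beside 20.4% in the nearest removed cell. In 25R these values were 609 and 486 genes, and 19.9% and 21.8%. The libraries shared 1 cell barcode. The Dendra2 sequence gave 578 UMIs in 15.8% of 70R cells and 821 UMIs in 20.8% of 25R cells. The labels call the cells epithelial although the tissue is bone. Of 14 mesenchymal markers 11 were measured, with a summed level of 7670 CPM in 70R and 7442 CPM in 25R, and VIM, the mesenchymal intermediate filament gene, stood at 2707 CPM in 70R and 2777 CPM in 25R. Of 15 epithelial markers, KRT8 and KRT18 alone passed 10 CPM, and their list summed to 1023 CPM in 70R and 859 CPM in 25R. Both genes lie inside the chromosome regions described below, where neighbouring genes differed together. None of 13 leukocyte markers passed 10 CPM (5.97 CPM summed in 70R and 2.14 CPM in 25R). Endothelial and adipocyte lists had 1 measured gene each, EGFL7 and PPARG, and a list of neuronal genes had none.

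Most transcripts stood at similar levels in the pair, and a small number differed strongly. Over the 7996 genes with a mean of at least 10 CPM, the median log2 ratio of 70R over 25R was 0.08, and 77.3% of genes lay within 1.25-fold. At least 2-fold higher in 70R were 92 genes (1.15% of those measured), and 30 genes (0.375%) were at least 2-fold lower. At 1.5-fold, 442 genes (5.53%) were higher and 133 (1.66%) lower. Of the genes past 2-fold, 75.4% were higher in 70R. Of the 92 higher genes 84 were protein coding and 7 were long non-coding RNAs. Among the 30 lower genes 25 were protein coding and 5 were long non-coding RNAs. In these summed counts, fewer cells using a gene and less RNA in each cell cannot be told apart, and the shares of cells with a UMI and the fitted burst values given further on bear on that.

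GTSF1, which in mice encodes a partner of the PIWI proteins that silence transposons in the germ line, showed the largest ratio. It had 4372 UMIs in 1946 of 2718 cells of 70R, against 1 UMI in 1 of 3121 cells of 25R, that is 81.5 CPM in 70R and 0.019 CPM in 25R. The ratio of 4298 has a counting interval of 771 to 169810, wide because the lower level rests on 1 UMI. Of the 6 libraries, Dendra2 25R alone was near 0: GTSF1 stood at 65.5 CPM in Dendra2 52R, 82.7 CPM in HaloTag 70R, 54.9 CPM in HaloTag 52R and 77.2 CPM in HaloTag 25R. The gene spans 54455950 to 54473602 on the minus strand of chromosome 12 (GRCh38, GENCODE v44), inside a stretch where all but 1 of the other measured genes were also lower in 25R, as described below. The next lowest of them, MARCH9, had 5.59 CPM in 25R. An annotated antisense transcript, GPR84-AS1, overlaps it, so reads of the pair could be mixed if strand was not used in counting. The cancer-testis genes below share the germ line as their normal site of expression. The 250 bases before the start sites of 4 genes of this kind are printed because expression of such genes is known to be tied to methylation of CpG sites in their promoters. They are RefSeq sequences of GRCh38.p14, written 5′ to 3′ on the gene's own strand with each CpG in capitals. Each lies directly before the start of its gene: GTSF1 at chr12:54473603-54473852 (minus strand), XAGE2 at chrX:52368771-52369020, PAGE2B at chrX:55074780-55075029 and PAGE2 at chrX:55088768-55089017 (plus strand). Methylation was not measured.
GTSF1: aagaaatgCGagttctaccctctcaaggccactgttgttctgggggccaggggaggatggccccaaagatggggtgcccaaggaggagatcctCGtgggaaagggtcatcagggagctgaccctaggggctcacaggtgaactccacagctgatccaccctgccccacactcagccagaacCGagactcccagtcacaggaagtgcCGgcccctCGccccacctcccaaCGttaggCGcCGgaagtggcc
XAGE2: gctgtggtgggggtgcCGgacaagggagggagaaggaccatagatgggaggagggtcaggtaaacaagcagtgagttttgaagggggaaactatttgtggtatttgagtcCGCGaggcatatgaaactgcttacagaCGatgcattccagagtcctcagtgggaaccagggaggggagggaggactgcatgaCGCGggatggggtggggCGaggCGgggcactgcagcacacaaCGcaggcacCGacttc
PAGE2B: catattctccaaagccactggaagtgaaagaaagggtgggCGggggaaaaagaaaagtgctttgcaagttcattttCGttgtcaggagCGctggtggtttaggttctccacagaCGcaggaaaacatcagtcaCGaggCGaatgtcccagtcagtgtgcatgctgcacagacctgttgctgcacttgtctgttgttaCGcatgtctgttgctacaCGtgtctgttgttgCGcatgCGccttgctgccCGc
PAGE2: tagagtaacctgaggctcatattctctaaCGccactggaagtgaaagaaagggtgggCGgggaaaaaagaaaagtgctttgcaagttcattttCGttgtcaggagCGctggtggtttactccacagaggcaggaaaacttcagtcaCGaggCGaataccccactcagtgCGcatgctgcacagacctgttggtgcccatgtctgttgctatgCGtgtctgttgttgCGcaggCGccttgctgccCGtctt

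These promoters hold 8 CpG in GTSF1, 10 in XAGE2 and 11 in each of PAGE2B and PAGE2, beside a median of 11 over the 27305 promoters in the table. At least as many CpG as in GTSF1 were present in 55.8% of all promoters, and 51.9% had at least as many as XAGE2, so the counts are ordinary. The dinucleotide CG was searched on one strand, since it reads the same on the other, and 93.6% of all promoters hold it. The promoters of PAGE2B and PAGE2 matched at 218 of 270 aligned positions (80.7%), and the genes are close paralogs, so the split of reads between them is uncertain.

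Cancer-testis genes differed in opposite directions within the pair. XAGE2, a member of the XAGE antigen family on chromosome X, stood at 41.7 CPM in 70R and 5.78 CPM in 25R, a ratio whose counting interval is 6.40 to 8.16. CTAG2, which encodes the LAGE-1 tumour antigen (chromosome X, 154651972 to 154653579), was the most strongly lower gene, with 11.4 CPM in 70R against 147.8 CPM in 25R (log2 ratio −3.58, ratio 0.077 with an interval of 0.0711 to 0.0840). CTAG2 was present in 206 of 2718 cells of 70R and in 2357 of 3121 cells of 25R, so most 70R cells lacked a UMI of it. PAGE2B stood at 109.3 CPM in 70R and 307.8 CPM in 25R, and its paralog PAGE2 at 222.6 CPM in 70R and 489.0 CPM in 25R. PRAME, a melanoma antigen gene, had a log2 ratio of −0.73. MAGEA4 (0.04), MAGEA12 (0.06) and MAGEA1 (0.11), also testis antigens of chromosome X, had log2 ratios near that of the median gene. The cancer-testis list used for counting holds neither XAGE2 nor PAGE2B. Over its 14 measured members the median log2 ratio was 0.08, the same as over all genes. Of the 14, 1 was at least 1.5-fold higher (GTSF1), against 5.53% of all measured genes. At least 1.5-fold lower were 3 (CTAG2, PAGE2 and PRAME), against 1.66% of all measured genes. Reads of CTAG2 and XAGE2 can also be shared with near-identical family members.

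Several of the other genes with the largest ratios were low in 25R and plainly present in 70R. LINC00221, a long non-coding RNA gene near the end of chromosome 14 (106482435 to 106521073), stood at 25.2 CPM in 70R and 0.40 CPM in 25R. SLC39A4, a zinc importer, stood at 25.3 CPM in 70R and 1.16 CPM in 25R. The phenol sulfotransferase gene SULT1A1 had 31.8 CPM in 70R and 2.48 CPM in 25R, with the reservation that it has near-identical neighbours. VAMP8, a SNARE of endosomal and secretory vesicles, had 26.8 CPM in 70R and 2.54 CPM in 25R. Matrix and cytoskeletal genes were among them: COL11A1, a fibrillar collagen chain of cartilage, had 18.9 CPM in 70R and 2.39 CPM in 25R, and NES, the intermediate filament nestin, had 29.2 CPM in 70R and 6.998 CPM in 25R. AFP, the fetal plasma protein α-fetoprotein, had 34.6 CPM in 70R and 8.51 CPM in 25R. CCL28, a mucosal chemokine, stood at 17.1 CPM in 70R and 3.20 CPM in 25R. KHDC1L had 17.0 CPM in 70R and 3.45 CPM in 25R, CRYBG2 had 30.6 CPM in 70R and 6.83 CPM in 25R, and the unnamed transcript AC010457.1 had 92.3 CPM in 70R and 21.5 CPM in 25R.

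PARP16, a mono-ADP-ribosyltransferase of the endoplasmic reticulum membrane, differed from these in how its counts were spread. It stood at 22.3 CPM in 70R and 3.60 CPM in 25R, but only 333 of 2718 cells had a UMI of it in 70R, and 147 of 3121 in 25R. Of its UMIs in 70R 94.9% came from the tenth of cells with the most, and the highest cell had 54 UMIs in 70R and 15 in 25R. VAMP8, at 26.8 CPM in 70R, had a UMI in 882 of 2718 cells there, and the tenth of cells with the most held 54.2% of its UMIs.

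Genes lower in 70R included growth factors and cell surface proteins. BMP4, a bone morphogenetic protein, stood at 26.0 CPM in 70R and 79.8 CPM in 25R, and NRG1, a ligand of ERBB receptors, at 10.4 CPM in 70R and 35.03 CPM in 25R. FAT3, an atypical cadherin, had 5.54 CPM in 70R and 35.7 CPM in 25R. LRRN1, a leucine-rich repeat membrane protein, had 6.69 CPM in 70R and 18.1 CPM in 25R, PLEKHA7, an adherens junction protein, 6.90 CPM in 70R and 19.2 CPM in 25R, and KCNG1, a modulatory potassium channel subunit, 5.98 CPM in 70R and 15.6 CPM in 25R. The zinc finger genes ZNF114 and ZNF283 of chromosome 19 had 6.94 and 14.4 CPM in 70R, against 25.9 and 38.4 CPM in 25R. The non-coding transcripts AL355916.1, LINC01029 and IGFL2-AS1 had 9.56, 23.0 and 14.6 CPM in 70R, against 51.0, 76.5 and 40.1 CPM in 25R. ANKRD45 had 5.35 CPM in 70R and 19.4 CPM in 25R. A list of inflammatory cytokines and NF-κB targets had a median log2 ratio of −0.02 over 9 measured genes. Of the 9, 2 were at least 1.5-fold lower, against 1.66% of all measured genes, and 1 at least 1.5-fold higher, against 5.53%. The lower ones were BIRC3, an inhibitor of apoptosis, which had 13.2 CPM in 70R and 29.8 CPM in 25R, and CD70, a ligand of the TNF family, which had 71.8 CPM in 70R and 142 CPM in 25R. The higher one was the chemokine CCL2 (0.93). PVT1, the long non-coding neighbour of MYC, had 75.8 CPM in 70R and 154.8 CPM in 25R.

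**Figure D1:**
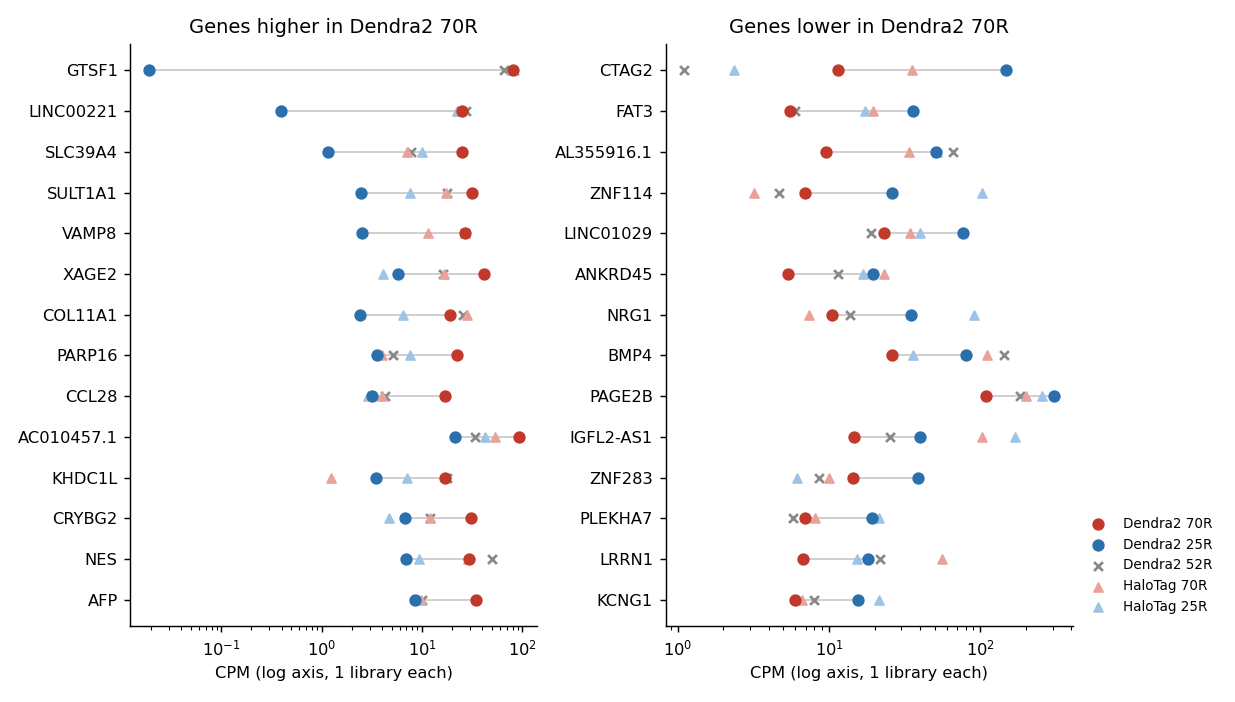
CPM (log scale) of the genes with the largest ratios, in each direction, in Dendra2 70R and 25R (circles), Dendra2 52R (crosses) and HaloTag 70R and 25R (triangles); each point is 1 library. GTSF1 stands at 81.5 CPM in Dendra2 70R and 0.019 CPM in Dendra2 25R, while CTAG2 stands at 11.4 CPM in 70R and 147.8 CPM in 25R.

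The HaloTag pair of the same CTD lengths shares no library with the Dendra2 pair, and gives each gene a value in another pair of lines. Of the 92 genes at least 2-fold higher in Dendra2 70R, 64 had a log2 ratio above 0 in HaloTag and 23 were at least 2-fold higher there, while 7 were at least 2-fold lower. Of the 30 lower genes, 21 were below 0 in HaloTag, 9 at least 2-fold lower and 5 at least 2-fold higher. Signs matched for 69.7% of the genes past 2-fold, for 63.6% of those outside the chromosome regions described below, and for 56.3% of all genes. In HaloTag 294 of the 7996 genes (3.68%) were at least 2-fold higher and 169 (2.11%) at least 2-fold lower. Genes with the same direction in both pairs included COL11A1 (log2 ratio 2.55 in Dendra2 and 1.96 in HaloTag), NES (1.92 and 1.54), XAGE2 (2.65 and 1.78), CRYBG2 (2.01 and 1.18), NRG1 (−1.65 and −3.46), ZNF114 (−1.76 and −4.64), SUGCT (−1.17 and −2.98) and PLEKHA7 (−1.35 and −1.32). With the opposite sign stood CTAG2, at 35.2 CPM in HaloTag 70R and 2.36 CPM in HaloTag 25R (log2 ratio 3.43), and BMP4, at 110.8 CPM in HaloTag 70R and 35.8 CPM in HaloTag 25R (1.60). AREG, an EGF receptor ligand, was also reversed, at 54.1 CPM in Dendra2 70R against 20.1 CPM in Dendra2 25R, but at 13.7 CPM in HaloTag 70R against 55.3 CPM in HaloTag 25R.

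The Dendra2 52R library lay between 25R and 70R for 66 of the 92 higher genes and for 16 of the 30 lower genes. These genes were picked for a wide gap between 70R and 25R, which by itself favours a value in between. The share over all measured genes was not computed, so no trend with CTD length is read from these counts. In the order 25, 52 and 70 repeats, SULT1A1 had 2.48, 17.6 and 31.8 CPM, XAGE2 had 5.78, 16.1 and 41.7 CPM, and PAGE2B had 307.8, 182.0 and 109.3 CPM. The order did not follow CTD length for CTAG2 (147.8, 1.10 and 11.4 CPM) or BMP4 (79.8, 142.9 and 26.0 CPM). AL355916.1 likewise had 51.0, 65.7 and 9.56 CPM. Of the genes named above with the same direction in both pairs, COL11A1, NES, ZNF114 and PLEKHA7 did not follow it either. COL11A1 had 2.39, 25.6 and 18.9 CPM, and NES had 6.998, 50.1 and 29.2 CPM. XAGE2, CRYBG2, NRG1 and SUGCT did follow CTD length.

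Many of the genes higher in 70R were neighbours on the chromosome. Over 263 windows of 10 Mb with at least 10 measured genes, 9 windows (3.42%) had a median log2 ratio at least 0.4 above that of all placed genes and 3 windows (1.14%) one at least 0.4 below. From the 5th to the 95th percentile the windows' deviations ran from −0.19 to 0.30. The 0.4 limit was chosen after the windows were seen, and so were the genes named in them. Joining neighbouring windows gave 4 higher regions, on chromosomes 5, 12, 14 and 20, and 3 lower ones, on chromosomes 2, 10 and 20. The higher regions held 281 of 7973 placed genes (3.52%), but 44 of the 91 placed genes at least 2-fold higher (48.4%) and 188 of the 441 at least 1.5-fold higher (42.6%). Those shares are built in, since the same ratios chose the windows, and nothing is read from them. The lower regions held 54 genes, 1 of the 30 lower genes at 2-fold and 11 of 131 at 1.5-fold. Outside all regions, 47 genes were at least 2-fold higher and 29 at least 2-fold lower. In HaloTag 35 windows passed the same limit, 13 higher and 22 lower, and 2 of them, both on chromosome 14, were also higher in Dendra2.

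**Figure D2:**
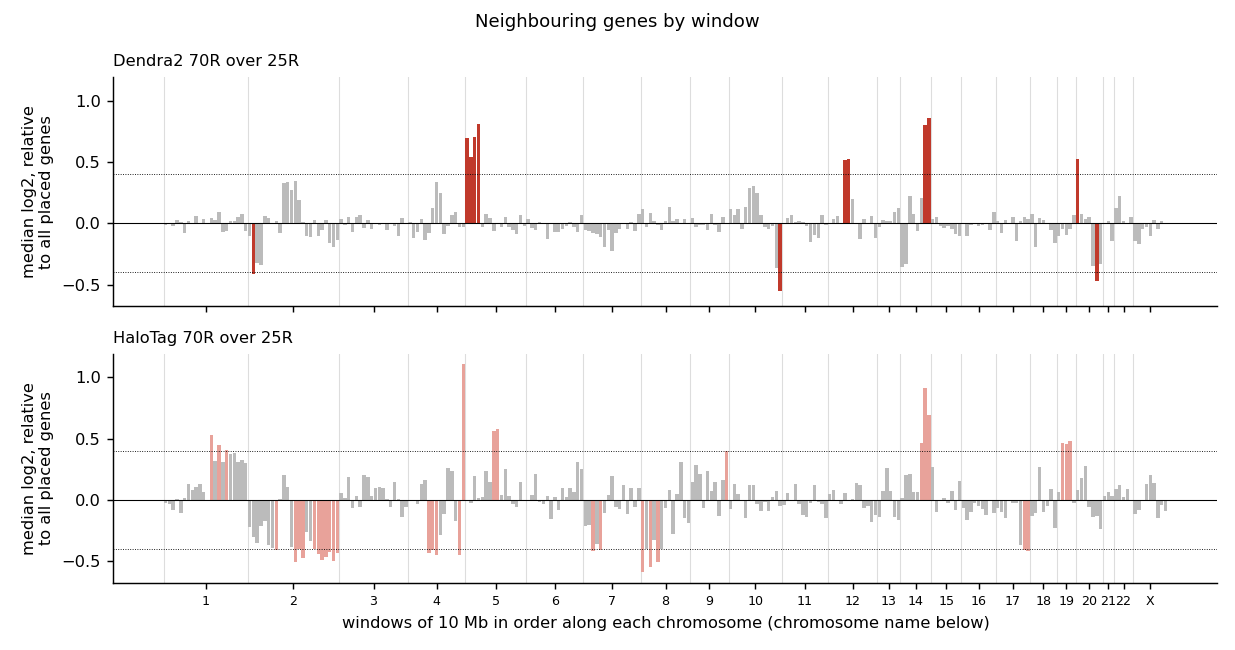
Median log2 ratio of 70R over 25R in 10 Mb windows along the chromosomes, less the median of all placed genes, for the Dendra2 pair (top) and the HaloTag pair (bottom); each bar is a window with at least 10 measured genes, and coloured bars pass the dotted lines at 0.4 either way. In the Dendra2 pair 9 windows stand above the upper line and 3 below the lower line, against 13 and 22 in HaloTag.

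On chromosome 14 the region from 90 to 110 Mb held 53 measured genes, of which 52 had a log2 ratio above 0, 51 were at least 1.5-fold higher and 17 at least 2-fold higher in 70R (median 0.94). Their summed level was 5195 CPM in Dendra2 70R and 2729 CPM in Dendra2 25R. The genes have unrelated roles. HSP90AA1, the stress-inducible form of the cytosolic chaperone HSP90, stood at 1391 CPM in 70R and 763 CPM in 25R. DICER1, the nuclease that cuts microRNA precursors, had 30.8 CPM in 70R and 13.6 CPM in 25R, and the kinase gene AKT1 had 23.3 CPM in 70R and 8.5 CPM in 25R. ATP5MPL, a small subunit of the mitochondrial ATP synthase, had 558.2 CPM in 70R and 220.6 CPM in 25R, and DDX24, an RNA helicase gene that overlaps OTUB2, had 160.9 CPM in 70R and 77.6 CPM in 25R. BCL11B alone was below 0 (−0.06). The same region was higher in HaloTag 70R than in HaloTag 25R (4922 and 2925 CPM, median log2 ratio 0.84), and stood at 5087 CPM in Dendra2 52R. HaloTag 52R stood between them at 3967 CPM.

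On chromosome 12 the region from 40 to 60 Mb held 118 genes, of which 117 had a log2 ratio above 0, 63 were at least 1.5-fold and 8 at least 2-fold higher in 70R (median 0.60). Their summed level was 28259 CPM in Dendra2 70R and 20037 CPM in Dendra2 25R. Among them, TUBA1B, an α-tubulin gene with near-identical paralogs, stood at 1918 CPM in 70R and 1215 CPM in 25R, and KRT81, a hair keratin, at 1273 CPM in 70R and 561 CPM in 25R. The ribosomal protein gene RPS26 had a log2 ratio of 0.62, against a median of −0.22 over its family. The lone gene below 0 was AGAP2-AS1 (−0.06). The other libraries stood nearer to Dendra2 70R than to Dendra2 25R. They had 28971 CPM in Dendra2 52R, 28315 CPM in HaloTag 70R, 27297 CPM in HaloTag 25R and 25767 CPM in HaloTag 52R. Dendra2 25R was thus the lowest library, with HaloTag 52R next. GTSF1 lies in this region, and after it the largest log2 ratio there was 1.58, of MARCH9.

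On chromosome 5 the region ran from the start to 50 Mb, across a window from 20 to 30 Mb with too few measured genes to be used, and held 75 genes between 196868 and 44820428. Of these 71 had a log2 ratio above 0, 56 were at least 1.5-fold and 15 at least 2-fold higher in 70R (median 0.75). Their summed level was 16737 CPM in Dendra2 70R and 10968 CPM in Dendra2 25R. CLPTM1L, a membrane protein gene beside TERT, stood at 750 CPM in 70R and 269 CPM in 25R. SDHA, the flavoprotein subunit of succinate dehydrogenase, had 80.9 CPM in 70R and 36.0 CPM in 25R, and HMGCS1, an early enzyme of cholesterol synthesis, had 153 CPM in 70R and 62.1 CPM in 25R. CCDC152, whose span overlaps the selenoprotein gene SELENOP on the other strand, had 129.1 CPM in 70R and 41.4 CPM in 25R. Below 0 were PURPL (−0.50), CMBL (−0.44), IL7R (−0.33) and SLC1A3 (−0.23). Here the 70R library stood apart, for the region summed to 9791 CPM in Dendra2 52R, 9920 CPM in HaloTag 70R and 9642 CPM in HaloTag 25R.

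Chromosome 20 held a region of each kind. From its start to 10 Mb all 35 genes had a log2 ratio above 0, 18 were at least 1.5-fold and 4 at least 2-fold higher in 70R (median 0.60), among them CENPB, a centromere protein (35.1 CPM in 70R and 15.2 CPM in 25R), and PCNA, the sliding clamp of replication (153 CPM in 70R and 104 CPM in 25R). From 50 to 60 Mb 28 of 29 genes were below 0, 6 were at least 1.5-fold and 1 at least 2-fold lower (median −0.39), with FAM217B the exception at 0.39. ATP5F1E, the ε subunit of ATP synthase, stood there at 1738 CPM in 70R and 2518 CPM in 25R, and AURKA, a mitotic kinase, at 96.3 CPM in 70R and 128.6 CPM in 25R. On chromosome 10 from 130 to 140 Mb all 12 genes were below 0 (median −0.47), with 615 CPM in 70R and 932 CPM in 25R in sum, and BNIP3, a mitophagy receptor gene, had 78.7 CPM in 70R and 155.6 CPM in 25R. On chromosome 2 from 10 to 20 Mb 10 of 13 genes were below 0 (median −0.33). The median log2 ratios of these 4 regions in HaloTag were 0.10, −0.11, −0.03 and −0.28. Windows beside the lower regions fell short of the limit but also had medians below 0. On chromosome 20 it was −0.27 in the window before the region and −0.26 in the one after it. The window before the chromosome 10 region had −0.29. Beside the chromosome 2 region the medians were −0.03 before it and −0.24 after it. Windows beside the higher regions were not all near the median gene. The nearest used window before the chromosome 14 region had 0.28, with 11 of 34 genes at least 1.5-fold higher. The window after the chromosome 12 region had 0.28, with 7 of 22 such genes, against 5.53% of all measured genes. Before the chromosome 12 region it was 0.08. After the chromosome 5 region it was 0.05, and after the higher chromosome 20 region 0.16. Genes in all such windows count as outside the regions.

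The difference between the libraries was seen in most single cells for the regions of chromosomes 14 and 12. The regions were chosen on the summed ratios of these same cells, so a higher or lower share is built in. Only its spread over the cells is described here. The chromosome 14 region took a median of 0.518% of a cell's UMIs in 70R and 0.264% in 25R, and 90.0% of 70R cells lay above the 95th percentile of 25R cells. For chromosome 12 the medians were 2.84% in 70R and 1.99% in 25R, with 90.4% of 70R cells above that percentile. For the start of chromosome 20 they were 0.250% in 70R and 0.163% in 25R, with 61.6% of 70R cells above. For chromosome 5 the median was 1.78% in 70R and 1.10% in 25R, but the 70R cells spread widely: the 5th to 95th percentiles ran from 0.830% to 2.23% in 70R and from 0.857% to 1.37% in 25R. The SD over cells was 0.426 points in 70R, where counting alone gives 0.108, and 0.162 points in 25R, where counting alone gives 0.092. While 78.6% of 70R cells lay above the 95th percentile of 25R cells, the low end of the 70R cells matched that of the 25R cells.

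**Figure D3:**
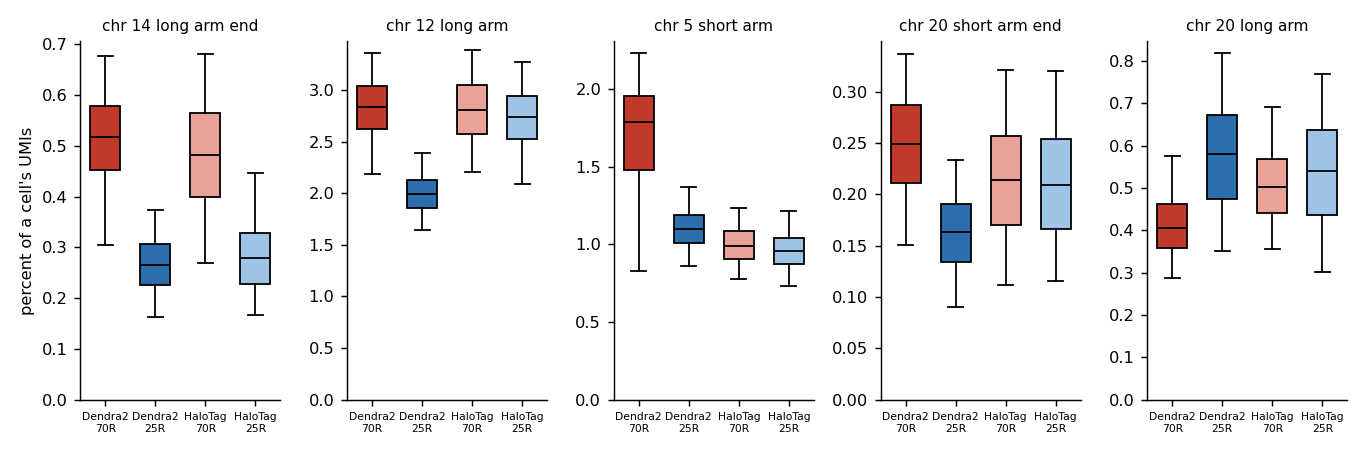
Share of each cell's UMIs (%) that came from the regions, by library; boxes show the quartiles and medians over cells and whiskers the 5th and 95th percentiles. The chromosome 5 region takes a median of 1.78% in Dendra2 70R and 1.10% in Dendra2 25R, and its low whisker in 70R, at 0.830%, is as low as that of 25R, at 0.857%.

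To see whether single 70R cells were low along the whole of that region, it was split at 20 Mb, a position chosen after the values were seen, into 32 outer and 43 inner genes. A 70R cell was called low if its outer genes took at most 0.350% of its UMIs, the 95th percentile of 25R cells. By this rule 611 of the 70R cells (22.5%) were low and 2107 (77.5%) were not, with 902 cells (33.2%) within 0.1 points of the limit. The inner genes, which the rule did not use, took a median of 0.788% in the low 70R cells (quartiles 0.635% and 1.01%), against 1.35% in the other 70R cells (1.21% and 1.48%), and 0.842% in 25R cells (0.758% and 0.931%). Of the low 70R cells 79.5% lay at or below the 95th percentile of 25R cells for the inner genes, as did 13.4% of the other 70R cells. Outer and inner shares were correlated over the 2718 cells of 70R (Pearson's r 0.61) and not over the 3121 cells of 25R (0.0025). Cells of a library share their depth and their culture, so these are descriptions.

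The low 70R cells resembled the rest of their library in the regions of chromosomes 12 and 14. Their median share was 2.85% for the chromosome 12 region and 0.505% for chromosome 14, against 2.83% and 0.522% in the other 70R cells, while 25R cells stood at 1.99% and 0.264%. For the long arm of chromosome 20 it was 0.428%, against 0.399% in the other 70R cells and 0.580% in 25R cells. Genes outside the regions were not compared in this way. The low 70R cells had a median depth of 17353 UMIs, against 19147 UMIs in the other 70R cells, and the mitochondrial shares were 5.69% and 5.35%. The 70R and 25R libraries shared 1 barcode. The part that depth has in the split was not tested. DNA copy number was not measured, and what moves neighbouring genes together in these lines was not tested.

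**Figure D4:**
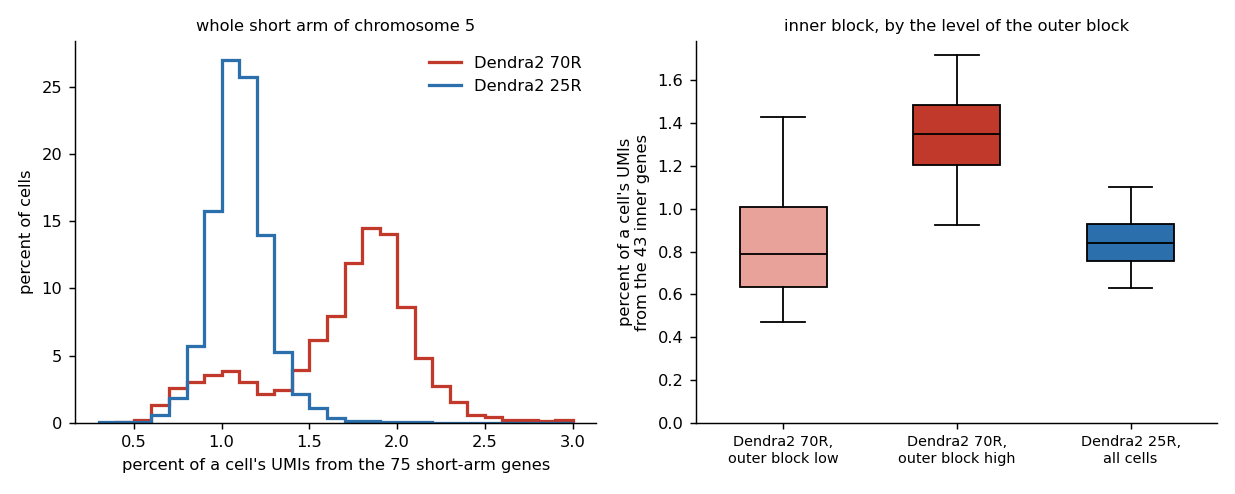
Left, distribution over cells of the share of UMIs (%) from the 75 genes of the chromosome 5 region in Dendra2 70R and 25R; right, share from its 43 inner genes in 70R cells low or high for the 32 outer genes and in 25R cells, with quartiles, medians and whiskers at the 5th and 95th percentiles. The low 70R cells have a median of 0.788%, beside 0.842% in 25R cells and 1.35% in the other 70R cells.

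Genes of the transcription machinery that works with the CTD stood close to the median gene. POLR2A, which encodes RPB1 itself, was the one subunit of RNA polymerase II past 1.5-fold among 12 measured. It stood at 188.5 CPM in 70R and 293.4 CPM in 25R (ratio 0.64, interval 0.626 to 0.659) and at 238.0 CPM in Dendra2 52R, with 204.7 CPM in HaloTag 70R and 194.6 CPM in HaloTag 25R. Whether transcripts of the tagged copy are counted as POLR2A, beside those of any untagged copy, was not tested. The remaining subunits ran from POLR2H (log2 ratio −0.15) to POLR2G (0.41), and the list's median was 0.04. Mediator, which joins activators to the polymerase, had a median of 0.11 over 24 genes, with MED10 of the chromosome 5 region alone past 1.5-fold (224 CPM in 70R and 131 CPM in 25R). Kinases, phosphatases and readers of the CTD had a median of 0.10 over 36 genes. Past 1.5-fold were CCNK, the cyclin of CDK12 and CDK13, which lies in the chromosome 14 region (log2 ratio 0.86), and RPRD1A, a CTD-binding protein (0.60). Integrator and polyadenylation factors had a median of 0.07 over 29 genes, and the 2 past 1.5-fold, the cleavage factor CPSF2 (1.06) and the poly(A) polymerase PAPOLA (0.99), both lie on chromosome 14. Splicing factors had a median of 0.02 over 46 genes, with SNRPD3, a core protein of spliceosomal particles, alone past 1.5-fold (0.72). These lists each held at most 2 genes past 1.5-fold. Of all measured genes 5.53% were at least 1.5-fold higher and 1.66% lower, so such counts say nothing particular about these lists.

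Of the 36 lists with at least 5 measured members, 6 had a median at least 0.2 away from the 0.08 of all genes. The antioxidant targets of NRF2, a transcription factor released under oxidative stress, had the largest shift upward, with a median of 0.44 over 21 genes. At least 1.5-fold higher were 8 of the 21, against 5.53% of all measured genes, and none was lower, and leaving out the member that lies in a region gave 0.40. They included AKR1C3, an aldo-keto reductase (19.9 CPM in 70R and 5.84 CPM in 25R), OSGIN1 (0.96), SLC7A11, the cystine importer (0.86), TXNRD1, thioredoxin reductase (0.76), and FTL, the light chain of the iron store ferritin (4818 CPM in 70R and 2973 CPM in 25R). Genes of cholesterol synthesis had a median of 0.28, and 22 of 23 were above 0, but HMGCS1 alone passed 1.5-fold. HSD17B7 had 0.57 and SQLE, squalene epoxidase, 0.48. Both lists lay on the other side of 0 in HaloTag, with medians of −0.45 for NRF2 targets and −0.31 for cholesterol synthesis.

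Antigen presentation by MHC class I had a median of −0.32 over 13 genes, of which 11 were below 0. At least 1.5-fold lower was 1 of the 13, against 1.66% of all measured genes. HLA-B stood at 168 CPM in 70R and 236 CPM in 25R, and B2M, the light chain common to class I molecules, at 513 CPM in 70R and 641 CPM in 25R. In HaloTag the list's median was 0.26. Ribosomal protein genes had a median of −0.22 over 79 genes, 71 of them below 0, and summed to 238530 CPM in 70R and 271820 CPM in 25R. RPS21 (−0.84) alone was at least 1.5-fold lower, and RPS26 of the chromosome 12 region alone at least 1.5-fold higher. Mitochondrially encoded messengers had a median of −0.20 over 13 genes and summed to 54065 CPM in 70R and 59693 CPM in 25R, and their HaloTag median was 0.38. Hosts of small nucleolar RNAs, whose spliced transcripts are short-lived and linked to translation, had a median of −0.18 over 20 genes, with ZFAS1 at least 1.5-fold lower (−0.80) and SNHG25 at least 1.5-fold higher (0.73). List members in the low or raised windows beside the regions were not marked. Depth per cell was also higher in 70R than in 25R, and its part in these medians was not tested.

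**Figure D5:**
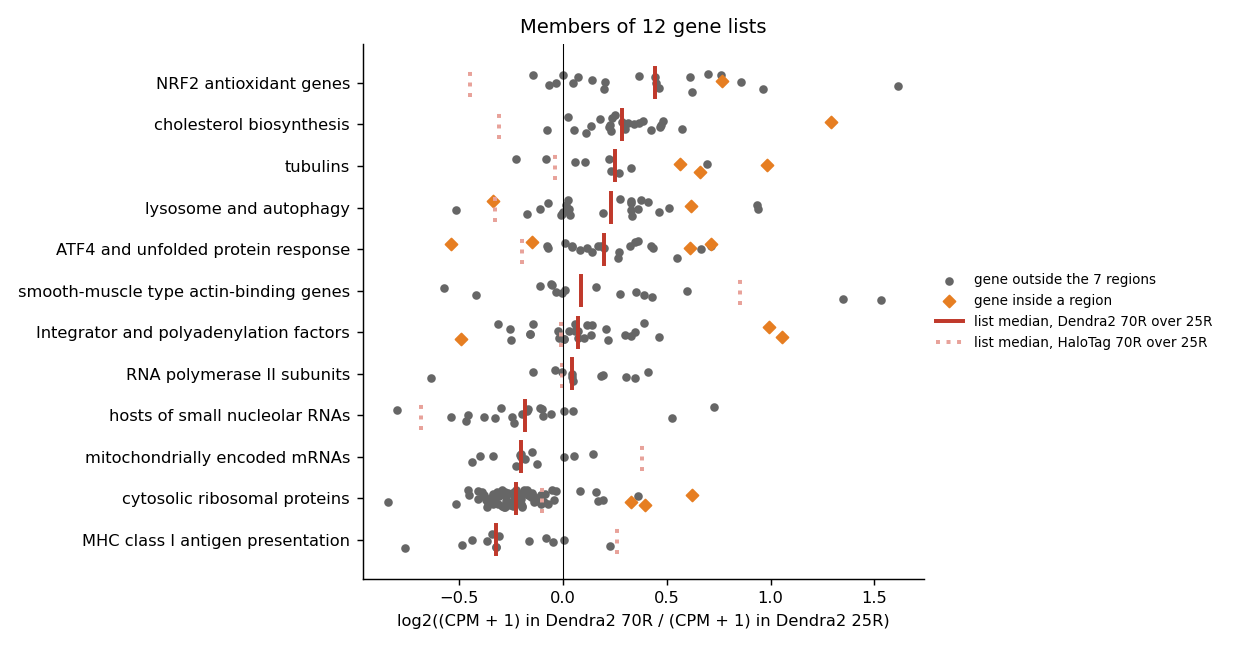
Log2 ratio of 70R over 25R for the measured members of 12 gene lists in the Dendra2 pair (points, with diamonds for genes inside a region), the list median (solid bar) and the list median in the HaloTag pair (dotted bar). Of the lists drawn, NRF2 targets have the highest median, at 0.44, and MHC class I genes the lowest, at −0.32, where the median of all genes is 0.08.

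Other lists held single members of note. Among 16 smooth-muscle actin-binding genes (median 0.08), TAGLN, the actin-bundling transgelin, stood at 175.5 CPM in 70R and 60.1 CPM in 25R, and CNN1, calponin, at 63.9 CPM in 70R and 24.5 CPM in 25R. Both had larger ratios in HaloTag, where TAGLN had 423.9 CPM in 70R and 26.6 CPM in 25R. TAGLN overlaps PCSK7. TNNC1, a troponin of slow muscle, had a log2 ratio of 0.91 in Dendra2 and 3.67 in HaloTag. Of 32 collagens and other matrix proteins (median 0.12) 5 were at least 1.5-fold higher, where 5.53% of all measured genes were, including COL5A2 (17.6 CPM in 70R and 4.17 CPM in 25R), and 1 was lower, COL6A1 (7.92 CPM in 70R and 18.1 CPM in 25R). Of 26 lysosomal genes (median 0.23) 3 were at least 1.5-fold higher, 1 of them inside a region, where 5.53% of all measured genes were higher. Whether the others lie in raised windows beside the regions was not marked. Among the 3 were NPC2, which carries cholesterol out of lysosomes (237 CPM in 70R and 123 CPM in 25R), and GPNMB (0.93). The ATF4 and unfolded-protein list had a median of 0.20 over 25 genes, with SEL1L of the endoplasmic reticulum quality control (0.71), the serine hydroxymethyltransferase SHMT2 (0.71), the transcription factor XBP1 (0.66) and TRIB3 (0.61) past 1.5-fold. These were 4 of the 25, against 5.53% of all measured genes, and SHMT2 and TRIB3 lie in the higher regions of chromosomes 12 and 20. CRYAB, a small heat shock protein, stood at 854 CPM in 70R and 381 CPM in 25R, in a list whose median was 0.11. Targets of p53 had a median of −0.09 over 27 genes, with PLK2 alone past 1.5-fold (−0.67). The 76 respiratory chain genes had a median of 0.01. Of these, 5 were at least 1.5-fold higher, all inside the regions, against 5.53% of all measured genes. Core histones had a median of −0.09 over 18 genes and none past 1.5-fold. In HaloTag the medians were −0.33 for lysosomal genes, −0.20 for the ATF4 list, −0.12 for heat shock chaperones and 0.39 for core histones. Those are on the other side of 0 from Dendra2. The HaloTag medians on the same side were 0.85 for smooth-muscle genes, 0.19 for matrix proteins, −0.58 for p53 targets and 0.06 for the respiratory chain.

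The share of cells with a UMI, compared after each cell was thinned to 5000 UMIs, followed the levels. It was at least 20 percentage points higher in 70R for 17 of the 7996 genes (0.213%) and at least 20 points lower for 8 (0.1%). Thinning left 2662 cells of 70R and 3020 of 25R, leaving out 56 and 101 shallower cells. The median gene was seen in 15.3% of thinned 70R cells and 14.6% of thinned 25R cells, and before thinning in 44.7% of 70R cells and 38.6% of 25R cells. GTSF1 was seen in 33.5% of 70R cells and in none of the 3020 cells of 25R, which allows a share of up to 0.122% of cells with a UMI at that depth, and sets no limit on cells that express the gene. ATP5MPL was seen in 92.2% of 70R cells and 65.5% of 25R cells, CCDC152 in 45.8% and 18.5%, BEX1, an adaptor protein of neural cells, in 49.9% and 23.4%, and DDX24 in 55.6% and 31.3%. On the lower side were CTAG2, in 3.68% of 70R cells and 48.6% of 25R cells, PAGE2B in 32.1% and 74.1%, PAGE2 in 59.2% and 86.9%, and SKA2, a spindle and kinetochore protein, in 41.5% and 62.9%. POLR2A was seen in 53.1% of 70R cells and 68.5% of 25R cells.

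The authors' deposited kinetic table fits a burst model to each gene's counts over cells and gives a burst frequency K, in its own unit, with lower and upper limits. Dividing the table's mean by K gives a burst size. Both were centred on their medians over the 4652 genes whose fitted mean averaged at least 0.5 UMIs per cell in the pair. The raw medians were log2 ratios of 0.14 for K and 0.18 for size. Centring takes out any shift common to all genes. The part that depth per cell has in the raw medians was not tested. K was at least 2-fold higher in 70R for 20 genes (0.43%) and at least 2-fold lower for 15 (0.322%). One of the 20 was CPN1, with 1 UMI in 70R and 0 in 25R, whose fit failed, which leaves 19. Taken as deposited, without centring, the limits of K lay apart for 350 genes (7.52%) with higher K in 70R and for 63 (1.35%) with lower K. Among genes past 1.5-fold in level, the median size ratio was farther from 0 than that of K in both directions. Over the 204 fitted genes at least 1.5-fold higher in CPM, the median log2 ratio was 0.65 for size and 0.05 for K, and the size ratio was farther from 0 than that of K in 170. Over the 65 fitted genes at least 1.5-fold lower, it was −0.67 for size and −0.19 for K, and size was farther from 0 in 45. Over the 14 fitted genes at least 2-fold lower the medians were closer, −0.66 for size and −0.50 for K. The fits use the same counts as the CPM, so these values are not independent of the levels. The share of all fitted genes with size farther from 0 than K was not computed. The genes were also picked for their level ratio. No rule for burst size is therefore read from these counts or from those of the regions below.

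In 6 of the 7 chromosome regions the median log2 ratio was also farther from 0 for size than for K by over 0.3. In the chromosome 14 region the median log2 ratio was 0.84 for size and 0.10 for K over 19 fitted genes, and on chromosome 12 it was 0.45 for size and 0.07 for K over 70. On chromosome 5 it was 0.86 for size and −0.17 for K over 49 genes, where some 70R cells were high and others low. On the long arm of chromosome 20 it was −0.47 for size and 0.07 for K over 22 genes, and on chromosome 10 −0.79 and 0.07 over 8. At the start of chromosome 20 it was 0.41 for size and 0.08 for K over 18 genes, with size farther from 0 in 12. The chromosome 2 region differed, with −0.10 for size and −0.06 for K over 9 genes.

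CTAG2 and PAGE2B had the lowest ratios of K. K of CTAG2 was 0.04 in 70R and 1.56 in 25R, while its size was larger in 70R (centred log2 ratio −5.29 for K and 1.51 for size). PAGE2B had a K of 0.41 in 70R and 2.62 in 25R (−2.81 for K and 1.23 for size), and PAGE2 of 1.46 in 70R and 2.69 in 25R. In 70R their transcripts were thus found in fewer cells and in more uneven amounts. AL355916.1 had a K of 0.25 in 70R and 0.94 in 25R. In the other direction RPL10L, a testis-expressed copy of RPL10 whose reads may be shared with its parent, had a K of 2.91 in 70R and 1.09 in 25R, and AREG 0.54 in 70R and 0.20 in 25R. TMEM9B had a K of 8.67 in 70R and 2.82 in 25R with a similar level in both (38.0 CPM in 70R and 34.3 CPM in 25R). For SYNC, C5orf15 and TSG101, which also passed 2-fold in K, the limits of the libraries overlapped. The fit of GTSF1 in 25R rests on 1 UMI, and its limits overlap those of 70R.

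Phase calls from lists of S and G2/M genes placed more 70R than 25R cells in G1. At 5000 UMIs per cell, 18.0% of 70R cells (interval 16.5% to 19.5%) and 12.5% of 25R cells (11.4% to 13.8%) were called G1, and the difference had the same direction at 10000 UMIs (15.8% of 70R cells and 9.59% of 25R cells). The S share was 30.3% in 70R and 32.8% in 25R at 5000 UMIs, and 21.6% in 70R and 31.2% in 25R at 10000 UMIs. At 5000 UMIs the G2/M share was 51.8% in 70R and 54.6% in 25R. At 10000 UMIs the G2/M share was 62.5% in 70R and 59.3% in 25R, so its direction depends on depth. Of the cells, 21.2% in 70R and 22.6% in 25R lay within 0.05 of a boundary between phases. The lists themselves hardly differed in level, with medians of 0.01 over 39 S genes and 0.03 over 52 G2/M genes, though MKI67, the proliferation antigen, stood at 159.6 CPM in 70R and 252.7 CPM in 25R.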

How the data were processed

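Single-cell libraries were made with a 3′ droplet chemistry, per the labels' protocols. The submitters' processing notes name bcl2fastq and the GRCh38 build. UMI counts per gene and cell were deposited by the authors as Cell Ranger 6.1.2 matrices, per the file headers. The authors' kinetic tables, in their own unit, give a mean, K and a squared coefficient of variation per gene, each with limits. The version of the fitting tool and whether strand was used are not given in the sources used here. The matrices of the HaloTag lines merge 2 sequencing runs each.

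The tag row was left out. Counts of kept cells were summed and divided by the library total, and log2 ratios carry a pseudocount of 1 CPM. A gene was measured at a mean of at least 10 CPM over the pair. Windows used gene starts in GENCODE v44. Thinning drew 5000 UMIs from each cell. Phases were scored with scanpy 1.11.5 on thinned cells, with 50 control genes and 25 expression bins. No doublet caller was run, and the share of cells over 50000 UMIs was 0.552% in 70R and 0.224% in 25R. Python 3.11.15 was used with pandas 2.3.3, numpy 2.4.6, matplotlib 3.10.9 and scipy 1.17.1. The level calculation was tested on simulated data.

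Genes named were the 15 per direction with the largest ratio, up to 4 per list with the largest ratio and the most highly counted, 6 per direction for K and for the share of cells with a UMI, POLR2A, and genes with at most 3 UMIs in one library. A few genes that this rule or the regions would name are not reported here, though they count in all totals. Genes named in the regions were added after their values were seen, and so were MAGEA1, MAGEA4 and MAGEA12. The members and lists were chosen with earlier results of these data known. Of 46 named genes, 30 had a promoter in the RefSeq table. CPN1, with 1 UMI in 70R and 0 in 25R, entered through a failed fit and has no further values. Alternatives were other scalings, filters, pseudocounts, cell limits and thinning depths. Intervals are exact (Clopper-Pearson).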

Additional observations from a re-analysis of the deposited data

Results flagged for a closer look

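In several results the Dendra2 and HaloTag pairs lay on opposite sides of 0, with 1 matrix on each side of each pair. The differences between the pairs were not tested. In each sentence the log2 ratio of 70R over 25R is given for Dendra2 and then for HaloTag. VAMP8 had 2.97 and −1.14, KHDC1L 2.02 and −1.85, and AREG 1.38 and −1.94. CTAG2 had −3.58 and 3.43, BMP4 −1.58 and 1.60, LRRN1 −1.31 and 1.81, and PAGE2 −1.13 and 1.33. LRRN1 overlaps SUMF1, so part of its reads may belong to the partner. For lists, the medians were 0.44 and −0.45 for NRF2 targets, 0.28 and −0.31 for cholesterol synthesis, −0.32 and 0.26 for MHC class I presentation and −0.20 and 0.38 for mitochondrially encoded messengers.

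The tag sequence, which is outside the gene comparison, gave 578 UMIs in Dendra2 70R and 821 UMIs in Dendra2 25R, or 10.8 CPM and 15.6 CPM. No library without the tag was analysed here.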

How the results depend on the processing

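No paired analysis was possible because each Dendra2 genotype had a single library. Scalings, cell limits, removal of the deepest cells and averaging over cells kept each count past 2-fold within 1.5 times. So did a pseudocount of 0.1 CPM (102 higher and 32 lower, against 92 and 30). Looser filters and a larger pseudocount did not: genes at least 2-fold higher and lower numbered 240 and 94 at a mean of at least 1 CPM, 255 and 99 with no filter, and 58 and 16 with a pseudocount of 5 CPM, since low genes have few UMIs. At 1.5-fold they numbered 903 and 375 at 1 CPM, and 1010 and 450 with no filter. Without the genes of the 7 regions, a choice made after seeing the data, 48 were at least 2-fold higher, 254 at least 1.5-fold higher and 62.3% of the genes past 2-fold were higher. Lists at least 0.2 from the median numbered 10 at 1 CPM, against 6, and windows past the limit 2 higher and 0 lower with no filter. Shares of cells with a UMI were higher past the limit for 121 genes unthinned and 40 at 10000 UMIs, and lower for 13 at 10000 UMIs. K was at least 2-fold higher for 881 and lower for 933 genes at a mean of 0.1 UMIs, higher for 0 and lower for 2 at a mean of 2 UMIs, and higher for 37 without centring, so K of low genes is poorly set. At 10000 UMIs the S share was lower in 70R by 9.51 points (−9.51, against −2.54) and the G2/M share was 3.27 points higher, against −2.87. The cause was not tested. Of 532 log2 ratios of named genes under the alternatives, 0 changed sign. From the main value, 481 moved by no more than the wider arm of the gene's counting interval, which is broad for GTSF1. Of 432 list medians 424 stayed within 0.1, and of 77 region medians 69 did.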
